A study of Mus musculus with 4 samples.

Results

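The Wnt pathway was followed in CT26 cells through 48 genes chosen by name: 4 Wnt ligands, 9 receptors and co-receptors, 4 genes of the R-spondin axis, 8 inhibitors, 4 genes of the beta-catenin destruction complex, 7 genes of the nuclear TCF/LEF complex, and 12 feedback and target genes. For each gene the probe sets annotated to that single symbol were taken, and where there were several, the one with the largest average signal was kept. This gave values for 46 of the 48, out of 22180 named genes on the array. Tcf7 and Ephb2 had no probe set under these names and were not analysed here. Of the 46, 41 reached the expression limit, a log2 value of 5.98 on at least 1 array, and 36 reached it on all 4 arrays. Fzd8, Lgr5, Nkd2, Tnfrsf19 and Prox1 stayed under it on every array. The 48 genes were chosen with earlier results of these data known.

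CT26 is an established colon carcinoma line from mouse. RNA was measured on 4 Affymetrix Mouse Gene 2.0 ST arrays, 1 per group. CT26 cells received the solvent DMSO for 24 h or 5 µM Senexin B for 24 h, a small-molecule inhibitor of the Mediator kinases CDK8 and CDK19. The second pair was the line carrying the empty short hairpin vector pLKO.1 and the line named shCDK8, both on the CT26 background. The labels name a single hairpin line, without its sequence or whether it is a clone or a pool. With 1 array per group no difference could be tested and no error can be given, so every difference below separates 2 arrays and includes whatever distinguishes 2 cultures. In RNA from whole cultures, a lower value may stand for less RNA per cell or for fewer cells with that RNA, and these cannot be told apart.

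Wnt proteins bind Frizzled receptors together with the co-receptors Lrp5 or Lrp6. This stops the destruction complex of Axin, Apc and Gsk3b from marking beta-catenin for degradation, and beta-catenin then joins TCF/LEF factors, Bcl9 and Pygo proteins on target genes. Many targets, such as Axin2, Nkd1, Rnf43, Znrf3 and Notum, feed back to damp the pathway. In the colon the pathway maintains crypt stem cells and is activated in most carcinomas, and CDK8 is known from human colon cancer cells as a regulator of transcription driven by beta-catenin.

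The gene aimed at by the hairpin gave log2 values of 10.69 in DMSO, 10.58 in Senexin B, 10.79 in pLKO.1 and 9.07 in shCDK8, so the library labelled shCDK8 was 3.31-fold lower than its vector control. Cdk19 differed by 0.16 and 0.19 in the inhibitor and hairpin comparisons. The array medians over 41345 probe sets lay between 5.99 and 6.04. Of 10 markers of intestinal epithelium 6 reached the expression limit on each array, while Epcam, Krt19, Vil1 and Lgals4 were under it on every array, and the log2 of the summed level ran from 9.68 in shCDK8 to 10.14 in Senexin B. All 7 mesenchymal markers reached it, and the log2 of their summed level ranged from 14.56 in DMSO to 14.78 in Senexin B. Within that list Pdgfra and Pdgfrb were 1.24 and 1.49 higher with Senexin B, while in shCDK8 Pdgfra differed by 0.39 and Pdgfrb by -1.25, or 2.38-fold lower. Krt20, one of the epithelial markers, differed by -0.10 with Senexin B and by -1.44 in shCDK8, or 2.72-fold lower, with the controls -0.69 apart. None of the 4 measured leukocyte markers reached the limit on any array, and of 3 endothelial markers 1 or 2 did. The part of these marker differences in the Wnt gene values was not tested.

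With Senexin B, 3 of the 41 expressed members were at least 1.5-fold lower than with DMSO, a log2 difference of at least 0.58, and 0 were 1.5-fold higher. The 3 were Dkk2, Fzd6 and Apcdd1. Over all 14272 expressed genes 1.65% were 1.5-fold lower and 2.35% were 1.5-fold higher. In shCDK8, 0 of 41 were 1.5-fold higher and 0 were 1.5-fold lower than in pLKO.1, beside 1.67% and 1.85% of all expressed genes. Between the control arrays, pLKO.1 minus DMSO, 0 of 41 passed in either direction, beside 0.603% of all expressed genes higher and 0.434% lower.

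The median difference of the expressed members was 0.067 for Senexin B and 0.066 for shCDK8. The Senexin B median turned to -0.025 with the limit at the 60th percentile of all values, and was 0.037 after renewed quantile normalization and 0.017 after removal of a lowess trend, so it has no settled direction. Over all expressed genes the medians were -0.028 and 0.0038. With the 5 members under the limit included, the medians of the 46 were 0.075 and 0.059. The median absolute difference of the expressed members was 0.20 for Senexin B, 0.15 for shCDK8 and 0.14 between the controls, and over all expressed genes it was 0.15, 0.14 and 0.11. With Senexin B 19 of the 41 members, or 46.3%, lay within 0.2 of 0, beside 61.2% of all expressed genes, and the SD over genes was 0.38 beside 0.29. In shCDK8 58.5% of the members lay within 0.2, beside 63.8%, and between the controls 63.4%, beside 74.7%. Among members and among all genes alike, the control arrays were the closest of the 3 pairs. Of the 46 members, 37 spanned less than 0.5 on the log2 scale from their lowest to their highest array. The share of all genes with so narrow a span was not computed, so this count does not set the members apart from other genes.

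**Figure D1:**
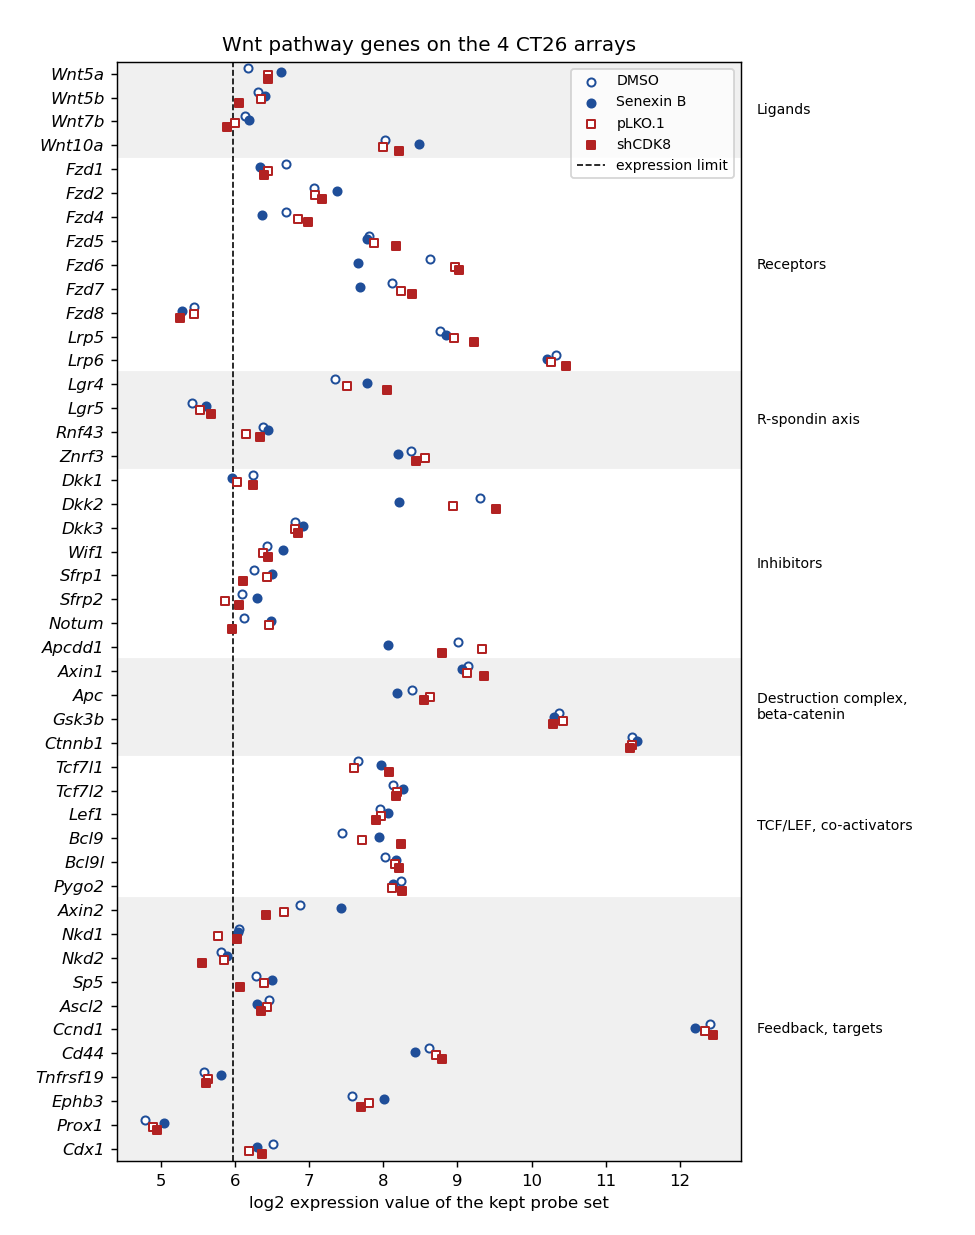
Log2 expression value (horizontal axis) of the kept probe set of each of the 46 measured Wnt genes (vertical axis, grouped by role) on the DMSO, Senexin B, pLKO.1 and shCDK8 arrays, 1 point per array and the 4 points of a gene set slightly apart vertically. The dashed line is the expression limit of 5.98; Fzd6, Dkk2 and Apcdd1 have their Senexin B point well to the left of the other 3, and values of different genes come from different probes and are not to be ranked.

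The largest difference from DMSO with Senexin B belonged to Dkk2. Against pLKO.1, Fzd6 and Apcdd1 lay farther down with Senexin B, at -1.31 and -1.26. The Dkk2 product is a secreted Dickkopf protein that binds Lrp5 and Lrp6 and can inhibit or, in some settings, activate Wnt signalling. Dkk2 stood at 9.31 in DMSO, 8.22 in Senexin B, 8.94 in pLKO.1 and 9.51 in shCDK8. It was lowest with Senexin B and highest in shCDK8. The Senexin B value was 2.14-fold under DMSO, a difference of -1.10, and Dkk2 was the 1 member at least 2-fold lower, beside 0.252% of expressed genes. Of the 14272 expressed genes 26 were at least as far below 0, Dkk2 included. In shCDK8 it differed the other way, by 0.57 from pLKO.1, just short of 1.5-fold. The control arrays themselves were -0.37 apart for this gene, the widest control difference among the expressed members. Against pLKO.1 the Senexin B difference was -0.73, and against DMSO the shCDK8 difference was 0.20. The lower value with Senexin B was therefore seen against both controls, while the higher value in shCDK8 shrank to within the distance between the controls.

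The proximal promoter of Dkk2 is shown because this gene had the largest difference from DMSO with Senexin B. The 250 bases before its start lie at chr3:132085042-132085291 on the plus strand of GRCm38.p6, from the RefSeq table. None of the TCF/LEF cores described further on was found in it, so nothing is capitalised.
Dkk2: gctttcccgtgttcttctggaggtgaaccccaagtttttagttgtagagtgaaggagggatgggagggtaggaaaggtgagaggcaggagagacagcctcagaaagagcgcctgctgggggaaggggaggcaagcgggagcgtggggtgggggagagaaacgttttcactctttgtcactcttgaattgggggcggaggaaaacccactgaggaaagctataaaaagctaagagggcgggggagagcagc

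Apcdd1, a membrane-bound inhibitor that binds Wnt proteins and Lrp5, is itself known as a beta-catenin target. It stood at 9.01 in DMSO, 8.07 in Senexin B, 9.33 in pLKO.1 and 8.79 in shCDK8. Both treated arrays lay under both controls, by a wide margin for Senexin B and a smaller one for shCDK8. With Senexin B it was 1.92-fold lower than with DMSO (-0.94) and 2.40-fold lower than pLKO.1 (-1.26). In shCDK8 it was -0.54 from pLKO.1, under the 1.5-fold limit, and -0.21 from DMSO. Apcdd1 was the 1 expressed member of 41 that differed by more than 0.4 downward in both comparisons, beside 0.533% of all expressed genes. Taken from DMSO, its shCDK8 difference did not reach that size.

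Fzd6 is a Frizzled receptor known mainly for planar cell polarity, the orientation of cells within a sheet, and for restraining beta-catenin signalling in some cells. It stood at 8.63 in DMSO, 7.66 in Senexin B, 8.97 in pLKO.1 and 9.02 in shCDK8. The Senexin B array was lowest, and the shCDK8 array was next to its vector control. The difference was -0.97 from DMSO, or 1.96-fold, and -1.31 from pLKO.1, or 2.48-fold. In shCDK8 it was 0.045 from pLKO.1.

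Set against the control range, the Senexin B array lay at least 1.5-fold below the lower control for these 3 of 41 members, beside 1.03% of expressed genes, and at least 1.5-fold above the higher control for 0 of 41, beside 1.44%. The shCDK8 array lay 1.5-fold above the higher control for 0 of 41, beside 0.981%, and 1.5-fold below the lower control for 0 of 41, beside 1.09%. The members nearest to that limit in shCDK8 were Lgr4 and Bcl9, each 0.53 over the higher control. Axin2 with Senexin B came nearest on the higher side, 0.55 over the higher control.

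**Figure D2:**
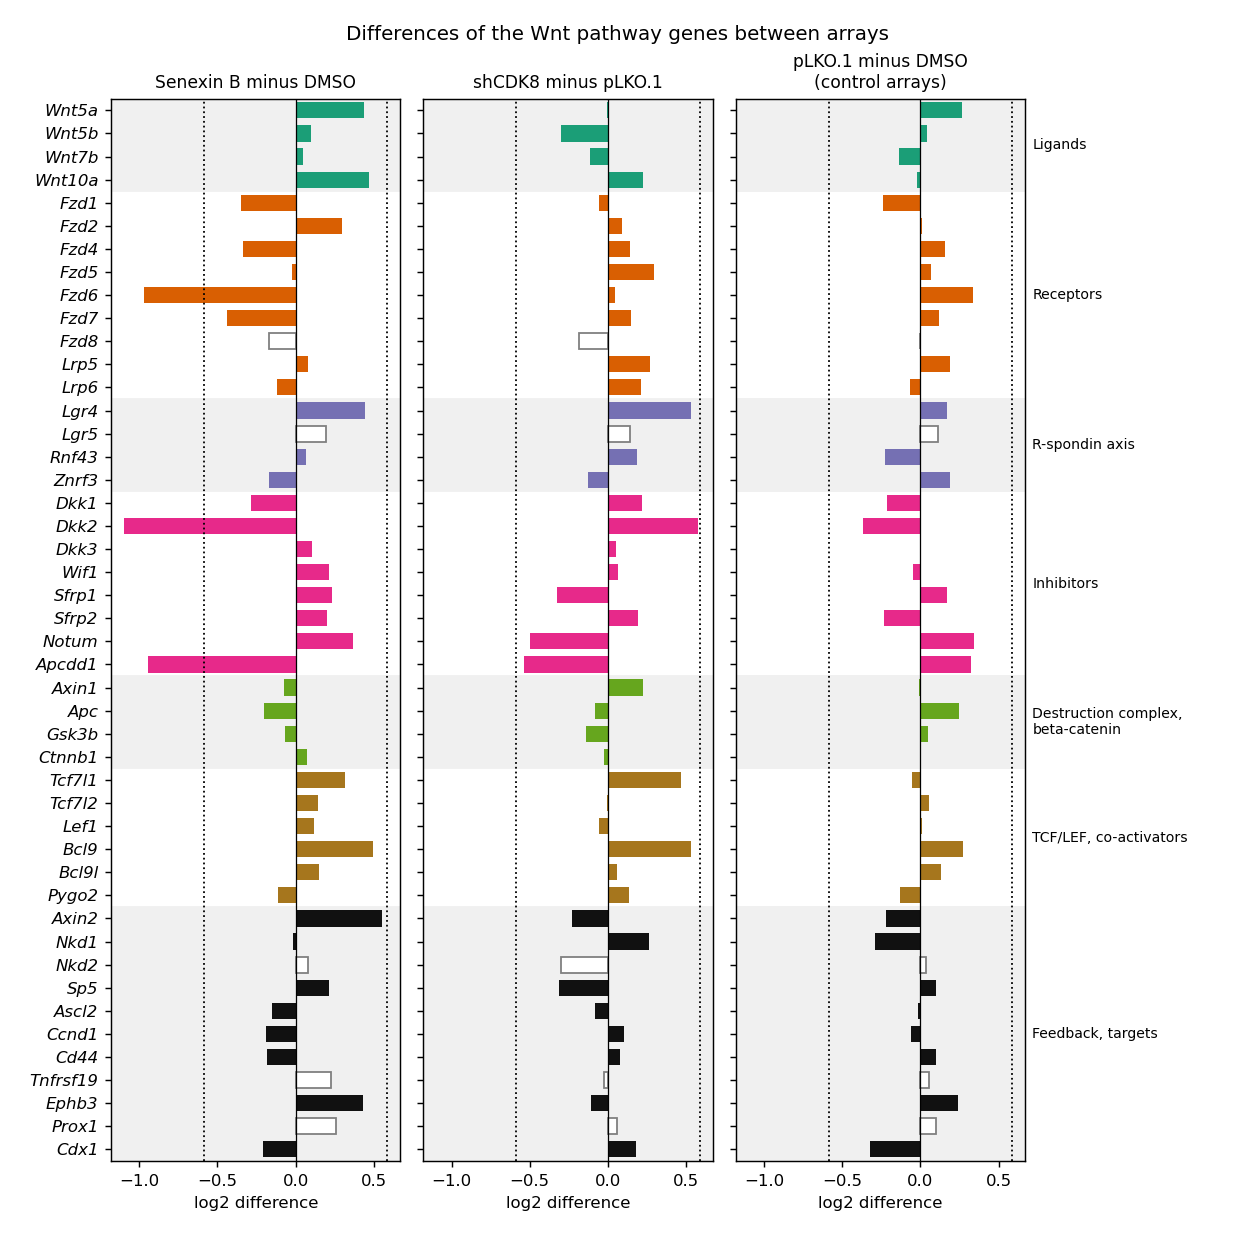
Log2 difference (horizontal axes) of each of the 46 Wnt genes for Senexin B minus DMSO (left), shCDK8 minus pLKO.1 (middle) and the control arrays pLKO.1 minus DMSO (right), coloured by role, with open bars for the 5 genes under the expression limit and dotted lines at 1.5-fold. Only the bars of Fzd6, Dkk2 and Apcdd1 in the left panel cross a dotted line, and no bar of the middle or right panel does.

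Among the ligands, all 4 reached the limit and all 4 were above 0 with Senexin B, beside 44.8% of all expressed genes. In shCDK8 1 of 4 was above 0 and 3 were below, beside 50.8% of all expressed genes above. Wnt10a, which acts through beta-catenin in skin and tooth development, stood at 8.02 in DMSO, 8.49 in Senexin B, 7.99 in pLKO.1 and 8.21 in shCDK8. It was highest with Senexin B, 0.47 over DMSO, and 0.22 over pLKO.1 in shCDK8. Wnt5a, the main ligand of pathways that do not use beta-catenin, stood at 6.18 in DMSO, 6.62 in Senexin B, 6.45 in pLKO.1 and 6.44 in shCDK8, with a Senexin B difference of 0.44. The pLKO.1 array lay 0.27 over DMSO, so much of that distance is also found between the controls. Wnt5b, a close relative of Wnt5a, differed by 0.099 and -0.30 (Senexin B first, here and for the genes that follow), and Wnt7b, a ligand of epithelial cells, by 0.048 and -0.11. Neither of these differences reached 1.5-fold. The Wnt7b sign with Senexin B turned negative, at -0.015, after removal of a lowess trend, and its shCDK8 value of 5.89 was under the limit.

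Of the 9 receptors 8 were expressed. With Senexin B 2 of the 8 were above 0 and in shCDK8 7 of 8, beside 44.8% and 50.8% of all expressed genes, and between the controls 6 of 8 were above 0, beside 44.3%. The medians of the 8 were -0.23 with Senexin B and 0.14 in shCDK8. Individually, 5 of them (Fzd4, Fzd5, Fzd6, Fzd7 and Lrp6) were below 0 with Senexin B and above 0 in shCDK8. Signs were opposite, in either direction, for 47.3% of all expressed genes. Some of these signs rest on values near 0. The Senexin B difference of Fzd5 was -0.025 and became 0.017 after removal of a lowess trend, and Fzd6 differed by 0.045 in shCDK8. Besides Fzd6, the most negative Senexin B difference was that of Fzd7, a Frizzled of intestinal stem cells, with values of 8.12 in DMSO, 7.68 in Senexin B, 8.24 in pLKO.1 and 8.39 in shCDK8. Its Senexin B difference was -0.44 and its shCDK8 difference 0.15. Fzd1, a receptor for several Wnt proteins, differed by -0.35 and -0.057, and Fzd4, which also binds the non-Wnt ligand norrin, by -0.33 and 0.14. Neither was 1.5-fold apart. Fzd2, a receptor for Wnt5a, was the Frizzled gene with the highest Senexin B difference, 0.30, beside 0.087 in shCDK8. Fzd5, the Frizzled gene of Paneth cell maturation, differed by -0.025 and 0.29. Fzd8 stayed under the limit, with values from 5.26 to 5.45.

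The co-receptors Lrp5 and Lrp6 were both above 0 in shCDK8. Lrp5 stood at 8.77 in DMSO, 8.85 in Senexin B, 8.96 in pLKO.1 and 9.23 in shCDK8 and was highest in shCDK8, 0.27 over pLKO.1. Lrp6 stood at 10.33 in DMSO, 10.21 in Senexin B, 10.26 in pLKO.1 and 10.47 in shCDK8, with differences of -0.12 and 0.21. A second Lrp6 probe set, with lower values, gave -0.043 and -0.023, so the small positive hairpin difference was not seen on both.

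In the R-spondin axis, Lgr receptors bind R-spondins and thereby keep the ubiquitin ligases Rnf43 and Znrf3 from removing Frizzled receptors. Lgr4 stood at 7.34 in DMSO, 7.78 in Senexin B, 7.51 in pLKO.1 and 8.04 in shCDK8. Both treated arrays lay above both controls. The Senexin B difference was 0.44 and the shCDK8 difference 0.53, and against the DMSO array the shCDK8 difference was 0.70, or 1.62-fold. Against pLKO.1 the Senexin B difference was 0.27, with the controls 0.17 apart. Lgr5, the marker of crypt stem cells, was under the limit on all arrays, at 5.41 in DMSO, 5.61 in Senexin B, 5.53 in pLKO.1 and 5.67 in shCDK8, and no difference in it can be read. Rnf43 differed by 0.067 and 0.19, and Znrf3 by -0.17 and -0.13, each less than its control difference of -0.23 and 0.19.

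Of the 8 inhibitors, 5 were above 0 and 3 below in each comparison, beside 44.8% and 50.8% of all expressed genes above 0, with Dkk2 and Apcdd1 as the outermost. Notum, a secreted enzyme that removes the lipid from Wnt proteins, stood at 6.12 in DMSO, 6.48 in Senexin B, 6.46 in pLKO.1 and 5.96 in shCDK8. It was 0.36 higher with Senexin B and -0.50 in shCDK8, but pLKO.1 was as high as Senexin B and shCDK8 as low as DMSO to within 0.2. The second Notum probe set was under the limit on every array and gave -0.070 and 0.0080. Dkk1, the best known Lrp6 antagonist, lay near the limit at 6.24 in DMSO, 5.96 in Senexin B, 6.03 in pLKO.1 and 6.25 in shCDK8. Its differences of -0.28 and 0.22 were not larger than 0.3. Dkk3, a Dickkopf relative without a settled role in Wnt signalling, differed by 0.10 and 0.049, and Wif1, which binds Wnt proteins outside the cell, by 0.22 and 0.066. The secreted Frizzled-related genes, whose products also bind Wnt proteins, lay close to the limit. Sfrp1 differed by 0.23 and -0.33 and Sfrp2 by 0.20 and 0.19, with a second Sfrp2 probe set at 0.28 and -0.060.

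The destruction complex genes and Ctnnb1 stayed within 0.25 of 0 in both comparisons. Ctnnb1, the gene of beta-catenin, stood at 11.35 in DMSO, 11.42 in Senexin B, 11.35 in pLKO.1 and 11.32 in shCDK8, a spread of about 0.1 over the 4 arrays. Gsk3b, the kinase that marks beta-catenin, differed by -0.069 and -0.14. Axin1, the scaffold of the complex, differed by -0.077 and 0.22, and the tumour suppressor gene Apc by -0.20 and -0.08. The control arrays differed by 0.24 for Apc, more than either treated pair.

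Of the nuclear factors, the 2 that lay farthest from 0 stayed under 1.5-fold in both comparisons. Bcl9, the co-activator that links beta-catenin to Pygo proteins, stood at 7.44 in DMSO, 7.94 in Senexin B, 7.71 in pLKO.1 and 8.24 in shCDK8. Both treated arrays lay above both controls, by 0.50 for Senexin B over DMSO and 0.53 for shCDK8 over pLKO.1. Against the DMSO array the shCDK8 difference was 0.80, or 1.74-fold. Against pLKO.1 the Senexin B difference was 0.23, less than the control difference of 0.27. Tcf7l1, the TCF factor known mostly as a repressor, stood at 7.66 in DMSO, 7.97 in Senexin B, 7.60 in pLKO.1 and 8.07 in shCDK8. It was 0.31 higher with Senexin B and 0.47 higher in shCDK8, with the controls -0.054 apart. Tcf7l2, the main TCF factor of the intestine, differed by 0.14 and -0.0092. Lef1, often raised when the pathway is active, differed by 0.12 and -0.057, so neither factor differed by more than 0.2. The Bcl9 relative Bcl9l differed by 0.15 and 0.057, and Pygo2, which reads methylated histones, by -0.11 and 0.13.

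Of the 8 expressed feedback and target genes 3 were above 0 with Senexin B and 4 in shCDK8, beside 44.8% and 50.8% of all expressed genes, and 0 reached 1.5-fold in either comparison. With the 3 measured genes under the limit included, 6 of 11 and 5 of 11 were above 0. Axin2, the most widely used reporter gene of beta-catenin activity, stood at 6.88 in DMSO, 7.43 in Senexin B, 6.65 in pLKO.1 and 6.42 in shCDK8. It was highest with Senexin B and lowest in shCDK8. The Senexin B value was 1.47-fold over DMSO (0.55), just under the limit, and 1.71-fold over pLKO.1 (0.77). In shCDK8 the difference was -0.23. The second Axin2 probe set gave 0.22 and -0.18, the same signs with a smaller Senexin B difference.

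Other classical targets differed by less with Senexin B. Sp5, a transcription factor gene directly bound by beta-catenin complexes, stood at 6.29 in DMSO, 6.50 in Senexin B, 6.39 in pLKO.1 and 6.07 in shCDK8. Like Axin2, it was highest with Senexin B and lowest in shCDK8. Nkd1, a feedback inhibitor that binds Dishevelled, lay at the limit at 6.06 in DMSO, 6.04 in Senexin B, 5.77 in pLKO.1 and 6.03 in shCDK8. Their Senexin B differences were 0.21 and -0.016, and in shCDK8 they were -0.32 and 0.26. Ccnd1, the cyclin D1 gene, stood at 12.40 in DMSO, 12.21 in Senexin B, 12.34 in pLKO.1 and 12.44 in shCDK8, with differences of -0.19 and 0.10. Cd44, an adhesion receptor for hyaluronan, differed by -0.18 and 0.078. Both were slightly low with Senexin B and close to the vector control in shCDK8.

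Among the targets that mark the intestinal crypt, Ephb3 is an ephrin receptor that positions crypt cells. It stood at 7.57 in DMSO, 8.004 in Senexin B, 7.81 in pLKO.1 and 7.70 in shCDK8. Senexin B lay 0.43 over DMSO, and shCDK8 differed by -0.11 from pLKO.1. The pLKO.1 array itself lay 0.24 over DMSO, and Senexin B was 0.19 over pLKO.1. Ascl2, a stem cell transcription factor, differed by -0.15 and -0.084, and Cdx1, an intestinal homeobox gene, by -0.21 and 0.18 beside a control difference of -0.32. Nkd2, Tnfrsf19 and Prox1 were under the limit on all arrays. Their Senexin B differences of 0.08, 0.23 and 0.25 and shCDK8 differences of -0.30, -0.026 and 0.06 therefore carry little information.

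The promoters of the members, of every role, were read on both strands for 4 forms of the core that TCF/LEF factors recognise. In each form C stands only at the first place, so matches on the same strand cannot overlap each other. Windows of 300 bases, 250 before and 50 after each start, were at hand in the RefSeq table of GRCm38.p6 for 29 of the 48 genes. Of these 29 genes, 7 had a match in at least 1 window, or 7 of 42 windows, and of all 32851 windows 16.9% had one. The form CTTTGAT alone was in 3.73% of all windows. The form CTTTGAA was in 5.14%, the form CTTTGTT in 5.85% and the form CTTTGTA in 3.63%. The 7 genes were Wnt5b, Fzd7, Dkk1, Tcf7l2, Lef1, Sp5 and Tnfrsf19. None of them was 1.5-fold apart in either comparison, beside 3 of all 41 expressed members with Senexin B and 0 in shCDK8. Of those 3, Fzd6 and Apcdd1 had no window, so matches cannot be set against the differences. A match is a description of the letters only.

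The promoters of Sp5 and Axin2 are shown as the pair of direct targets with and without such a core near the start, the 250 bases before it, with the matches in capitals. They lie at chr2:70474673-70474922 and chr11:108920099-108920348, both on the plus strand. Sp5 holds a match on each strand, 222 and 104 bases before the start.
Sp5: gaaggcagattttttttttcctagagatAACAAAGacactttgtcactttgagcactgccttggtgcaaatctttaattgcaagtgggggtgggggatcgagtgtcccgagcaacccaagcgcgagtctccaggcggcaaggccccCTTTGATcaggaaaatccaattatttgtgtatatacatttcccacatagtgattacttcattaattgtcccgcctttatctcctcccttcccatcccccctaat
Axin2: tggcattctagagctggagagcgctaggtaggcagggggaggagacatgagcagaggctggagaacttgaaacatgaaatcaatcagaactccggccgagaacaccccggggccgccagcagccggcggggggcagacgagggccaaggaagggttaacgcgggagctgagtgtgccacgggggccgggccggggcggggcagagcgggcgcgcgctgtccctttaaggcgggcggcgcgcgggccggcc

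Shorter stretches around the matches in Wnt5b (chr6:119449440-119449469, minus strand, 71 bases before 1 of its 3 starts), Fzd7 (chr1:59482005-59482034, plus strand, 130 bases before), Dkk1 (chr19:30549596-30549625, minus strand, 117 bases before) and Tnfrsf19 (chr14:61038172-61038201, minus strand, 202 bases before 1 of its 2 starts) show the core in a ligand, a receptor, an inhibitor and a target gene. The core is in capitals, and each line reads along the gene's own strand.
Wnt5b: gagtaagtctctCTTTGATctgctccctgt
Fzd7: gtccacagagaaAACAAAGcgcgctattgg
Dkk1: ctcctcccaaagCTTTGAAatcccatcccg
Tnfrsf19: cctgaatgggggATCAAAGtgacaaactag

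The inhibitor and hairpin comparisons have no array in common and can be set side by side. Over the 41 expressed members Pearson's r between the differences was -0.014 and Spearman's rho -0.041, beside 0.0078 and 0.054 over the 14272 expressed genes. These are descriptions across genes, which are not independent replicates. Above 0.4 in both comparisons, a lower limit than 1.5-fold, were 2 members, Lgr4 and Bcl9, or 4.88% of the 41, beside 0.624% of all expressed genes. Neither was 1.5-fold apart in either comparison. Against pLKO.1 their Senexin B differences were 0.27 and 0.23, under 0.4. Signs were opposite for 24 of 41 members, or 58.5%, beside 47.3% of all expressed genes, with Dkk2, Fzd6, Notum and Axin2 the farthest apart.

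**Figure D3:**
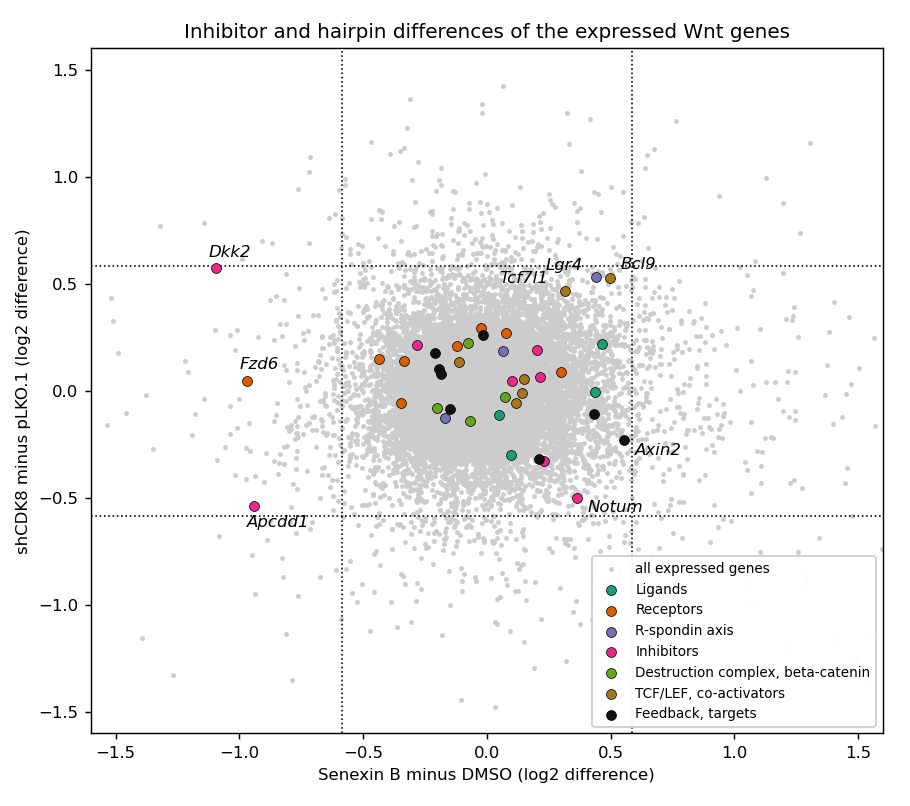
Log2 difference of shCDK8 minus pLKO.1 (vertical axis) against Senexin B minus DMSO (horizontal axis), with 1 point per gene for all expressed genes (grey) and for the 41 expressed Wnt genes (coloured by role), and dotted lines at 1.5-fold; 41 genes with a difference beyond 1.6 on either axis, none of them a Wnt member, lie outside the frame. Dkk2, Fzd6 and Apcdd1 stand alone on the left, Lgr4 and Bcl9 at the upper right inside the dotted lines, and the remaining members in the central cloud.

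Pathway genes outside the 48 were taken from lists of other components, other reported beta-catenin targets and the branches that do not use beta-catenin. The lists were chosen with earlier results of these data known, so the counts below are descriptions and not tests. Of 110 listed genes 106 were measured and 88 reached the expression limit. With Senexin B 6 of the 88 were at least 1.5-fold higher and 0 lower, beside 2.35% and 1.65% of all expressed genes. In shCDK8 3 were higher and 1 lower, beside 1.67% and 1.85%. Of these 3, Ccn4 reached the expression limit only on the shCDK8 array, where it was high, so its place in the count depends on that array. Between the controls 2, Sox9 and Rspo4, were higher and 1, the planar polarity gene Daam1, was lower, beside 0.603% and 0.434%. The medians of the 88 were 0.028 and 0.0053.

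The outlying genes of these lists were scattered over different roles. Sox9, a transcription factor of crypt progenitors, stood at 7.31 in DMSO, 8.91 in Senexin B, 7.99 in pLKO.1 and 6.98 in shCDK8, highest with Senexin B and lowest in shCDK8, and the controls were 0.68 apart. Trib2, a pseudokinase gene reported as a Wnt target, stood at 8.997 in DMSO, 10.02 in Senexin B, 8.87 in pLKO.1 and 9.44 in shCDK8. It was 1.02 over DMSO with Senexin B and 0.58 over pLKO.1 in shCDK8, just under 1.5-fold. Both treated arrays lay above both controls. Vegfa, the angiogenic growth factor gene, differed by 0.86 and 0.34, and Ets2, an ETS transcription factor gene, by 0.75 and -0.25. Ror2, a receptor for Wnt5a, was 0.67 over DMSO with Senexin B and 0.18 over pLKO.1 in shCDK8. Rspo4, an R-spondin gene, was 0.67 higher with Senexin B, but the pLKO.1 array was 0.70 over DMSO as well.

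In shCDK8 the highest was Ccn4, a secreted Wnt-inducible matrix protein gene, at 5.91 in DMSO, 5.89 in Senexin B, 5.65 in pLKO.1 and 6.99 in shCDK8, with the other 3 arrays under the expression limit. Wnt10b, a ligand of the beta-catenin branch, differed by 0.66 from pLKO.1 and 0.39 from DMSO, and Prickle2, a planar polarity gene, by 0.64 and 0.44. Neither of these 2 was 1.5-fold apart from the DMSO array. Myc, among the best known targets in colon cancer, stood at 10.27 in DMSO, 10.32 in Senexin B, 10.34 in pLKO.1 and 10.12 in shCDK8 and was within 0.3 in both comparisons.

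**Figure D4:**
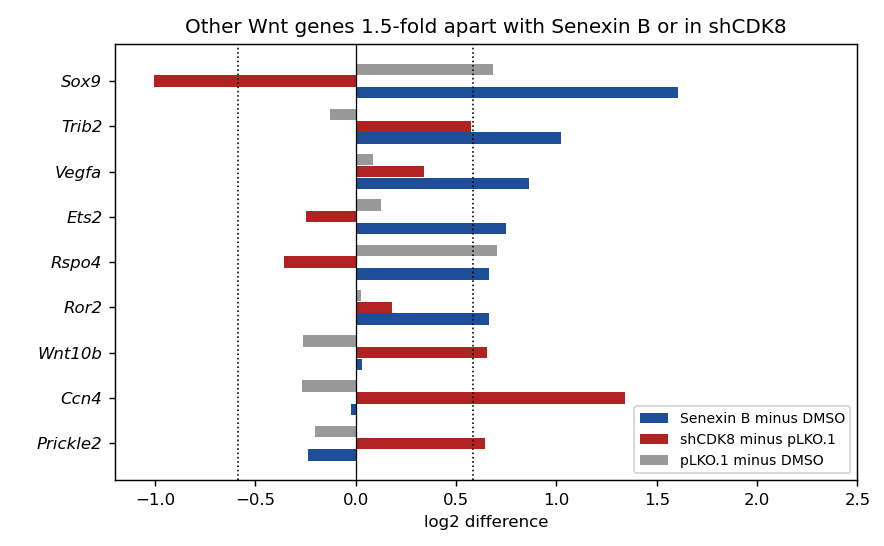
Log2 differences (horizontal axis) of the 9 Wnt genes outside the 48 that were expressed and at least 1.5-fold apart with Senexin B or in shCDK8 (vertical axis), for Senexin B minus DMSO (blue), shCDK8 minus pLKO.1 (red) and pLKO.1 minus DMSO (grey), with dotted lines at 1.5-fold. Sox9 lies on opposite sides of 0 in the treated pairs, Trib2 is on the right in both, and the grey bars of Sox9 and Rspo4 also pass the dotted line.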

How the data were processed

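Expression of 46 Wnt pathway genes was compared between single arrays of CT26 cells. The authors deposited log2 values made with RMA in Affymetrix Expression Console, per the submitters' processing notes. Of versions, settings and joint normalization of the arrays, the sources used here say nothing. RMA makes the arrays' distributions alike and compresses differences near background.

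Of 41345 probe sets, 23521 had 1 symbol in the platform annotation, 1814 had several and 16010 had none. The first kind stood for 22180 genes. The expression limit was 5.98, the 40th percentile over all genes and arrays, and 14272 genes reached it on at least 1 array. Differences of log2 values were counted at 1.5-fold with Python 3.11.15 and pandas 2.3.3, without a test. For genes differing the same way in both comparisons, a lower limit of 0.4 was used. The counting was checked on simulated arrays with known differences. Symbols of all 46 matched the RefSeq table. The number of arrays limits the precision.

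All 48 members were to be named, and of the other Wnt lists the expressed genes 1.5-fold apart. Members and lists were chosen with earlier results of these data known. Alternatives were other expression limits, removal of a lowess trend, a renewed quantile normalization, other ways of treating several probe sets, a floor at the limit, the other control array and a 2-fold threshold.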

Additional observations from a re-analysis of the deposited data

How the results depend on the processing

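Each group had 1 array, so replicates could not be left out. No paired analysis was possible because the groups have a single array each and the labels number no replicates. The count of 3 members at least 1.5-fold lower with Senexin B was also 3 without an expression limit, with the limit at the 60th percentile or on the mean, after repeated quantile normalization or removal of a lowess trend, with the mean of the probe sets, with single-probe-set genes, with a floor, and against pLKO.1. At 2-fold it was 1, Dkk2. Against pLKO.1 the 2-fold count was 2, Fzd6 and Apcdd1, with Dkk2 1.65-fold lower. Against the other control array 1 member, Axin2, was 1.5-fold higher with Senexin B, and 2, Lgr4 and Bcl9, were 1.5-fold higher in shCDK8. The other counts stayed at 0 under every alternative. The Senexin B median lay between -0.025, with the limit at the 60th percentile, and 0.075, and the shCDK8 median between 0.044 and 0.087. Of 460 recomputed member differences 37 moved by at least 0.19, the SD over genes between the controls. The other control array as reference accounted for 15 of these in each comparison. Only differences of at least 1.5-fold were checked for a change of sign. These were the 3 with Senexin B, which kept their sign, and in shCDK8 there was nothing to check. Sign changes of smaller differences were not counted, though some occurred. In shCDK8, Rnf43 differed by 0.19 from pLKO.1 and by -0.04 from DMSO. The largest shift under repeated normalization or trend removal was 0.085, for Axin1 with Senexin B.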

Other observations

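Members with values near the expression limit differed about as much between the control arrays as between treated and control arrays. For the 17 expressed members whose mean lay less than 1 above the limit, the median absolute difference was 0.21 for Senexin B, 0.19 for shCDK8 and 0.21 between the controls. For the 24 members with higher means it was 0.19, 0.14 and 0.11. Over all expressed genes the same medians were 0.17, 0.16 and 0.14 for the 4883 near the limit. They were 0.15, 0.13 and 0.10 for the 9389 with higher means. All 3 members that were 1.5-fold lower with Senexin B belong to the 24 with higher means.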
